A study of Populus qamdoensis and Populus schneideri with 18 samples.

Results

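This report concerns leaves of *Populus schneideri* cuttings kept under a blue film (BF) or a green film (GF), 3 libraries a side, 6 of the 18 leaf libraries of the series. The members were taken by their sample titles, which give the species, the film color and a replicate number. The remaining libraries are 3 of *P. schneideri* under a white film (WF) and 9 of *P. qamdoensis*, a second poplar, under the same colors. The WF libraries entered the fit only to choose the genes tested, by their mean level, and to estimate the spread. All libraries were prepared from leaves of cuttings, and no genotype or treatment other than the film is given. The sample labels name only a blue, green or white light quality, so that the film is read from the design text of the series, and the days under film, the number of plants and the growth conditions of *P. schneideri* are unknown. Nothing states that the replicates were separate plants, and p-values then measure only the spread between these libraries, which may be technical.

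Plants sense the color of light through several photoreceptors, as worked out mainly in Arabidopsis. Cryptochromes such as CRY1 absorb blue light and, when active, restrain the ubiquitin ligase COP1, which otherwise marks the bZIP factors HY5 and HYH for breakdown. Phytochrome B (PHYB) senses the balance of red and far-red light and acts against the phytochrome-interacting factors (PIFs), which promote elongation. Leaves are also the site of chlorophyll turnover, of starch and sucrose metabolism and of phenolic compounds such as flavonoids, which absorb short-wavelength light. The comparison of BF with GF asks how transcript levels in the leaf differ between 2 colored films.

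Values are FPKM, that is fragment numbers corrected for the length of the gene and the size of the library, for 39194 genes, of which 37562 carry *P. yunnanensis* identifiers and 1632 are listed as new. The sums of FPKM over all genes ran from 556110 to 581729 in the 6 libraries and the medians from 1.68 to 1.94 FPKM, while 10849 to 11183 genes were listed at 0. The read number of each library is unknown, so that no counting error can be given for low values. Pearson's r across genes, on log2(FPKM + 1), ran from 0.950 to 0.989 within films and from 0.956 to 0.983 between them over the 9 *P. schneideri* libraries, and the mean r was 0.977 within and 0.971 between films (exact permutation over the 280 splits into 3 groups of 3, one-sided p = 0.0357). Within the 6 BF and GF libraries alone, the means were 0.972 and 0.972 (exact permutation over 10 splits, one-sided p = 0.50, where the smallest possible p is 0.1). The GF libraries were the most scattered. On the first principal component, GF replicate 1 was at 45.2 and GF replicates 2 and 3 at -10.6 and -21.7, with all BF libraries between 12.4 and 24.5, and on the second BF replicate 2 and GF replicate 3 stood apart at -30.8 and -38.7. As a check of the leaf label, the 3 genes listed under antenna proteins of photosynthesis, whose products bind chlorophyll, lay between the 94.65th and the 99.72nd percentile of all genes in every BF and GF library. The 6 genes listed under photosynthesis were lower, between the 45.6th and the 98.7th percentile.

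**Figure D1:**
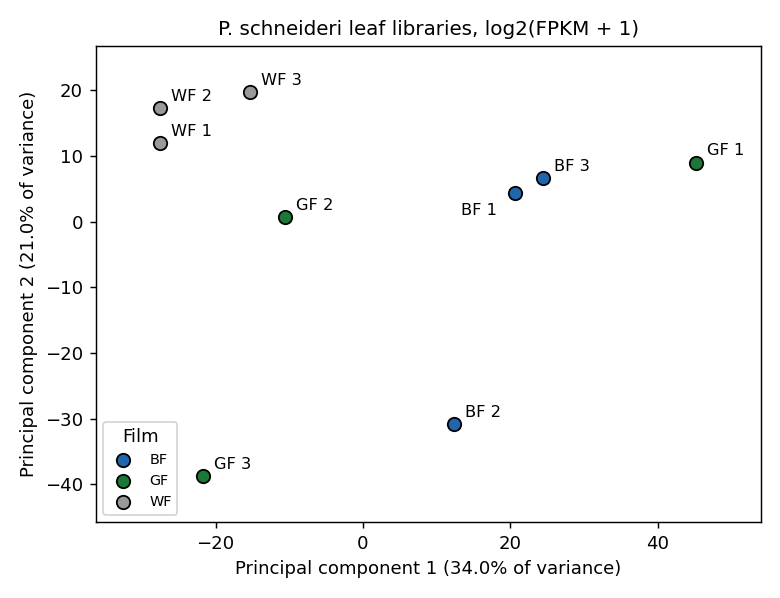
Principal components 1 and 2 of the 9 *P. schneideri* libraries, computed on log2(FPKM + 1) of the 23821 genes tested. Each point is a library, coloured by film and labelled with its replicate number, and the 3 GF libraries spread from -21.7 to 45.2 along component 1 while the 3 BF libraries lie between 12.4 and 24.5.

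No gene met the thresholds for a DEG, a fold change of at least 1.5 with a Benjamini-Hochberg adjusted p below 0.01 in limma, among the 23821 genes whose mean over the 9 *P. schneideri* libraries reached 0.5 FPKM (0% called). The count was 1 without BF replicate 1, GF replicate 1 or GF replicate 2, and 14 (10 higher and 4 lower in BF) when each library was weighted by its scatter, with GF replicate 1 weighted least. In the main fit even the smallest unadjusted p, 6.78e-07 in limma, became 0.0132 after adjustment, and the median SE of a log2 fold change was 0.159. A gene that was not called is therefore not shown to be unchanged, here or in the lists below. At an unadjusted p below 0.05 the fit held 1545 genes (6.49%), 1013 higher in BF and 532 lower. Under median-ratio scaling these counts were 884 higher and 715 lower and under quantile normalization 851 and 782, so that the surplus of higher genes depends on the scaling. At an adjusted p below 0.05 with the same fold change there were 12 genes (0.0504%), 10 higher in BF (0.0420%) and 2 lower (0.0084%). In all 12 the 3 BF libraries did not overlap with the 3 GF libraries, a separation that 9.56% of all genes tested showed (6.19% higher and 3.38% lower in BF). Their log2 fold changes, on the log2(FPKM + 1) scale, which understates the change of low genes, ran in size from 1.39 to 2.59. The WF mean lay between those of BF and GF in 11 of the 12. Choosing genes by a large difference between BF and GF favors such a place for WF, and the share over all genes was not computed. The count of 12 is not stable to single libraries. It was 6, 7 and 4 without BF replicates 1, 2 and 3, 42, 3 and 0 without GF replicates 1, 2 and 3, and 0, 4 and 13 without WF replicates 1, 2 and 3.

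Only 2 of the 12 genes are listed under a pathway in the study's tables. Pyun06G006840, listed under MAPK signaling and plant hormone signal transduction, had 27.1, 29.8 and 35.5 FPKM in BF replicates 1 to 3 against 9.54, 12.7 and 11.1 FPKM in GF replicates 1 to 3. Every BF library exceeded every GF library, and the 3 WF libraries lay in between at 17.8 to 20.4 FPKM. Its log2 fold change was 1.39 (SE 0.134, limma adjusted p = 0.0132) and stayed between 1.29 and 1.49 when any single library was left out. Pyun06G009990, listed under plant-pathogen interaction, a pathway of immune receptors and their signaling, had 34.1, 35.5 and 37.3 FPKM in BF and 16.3, 8.11 and 7.46 FPKM in GF. The BF libraries were close together and GF replicate 1 was the highest of the GF libraries. The log2 fold change was 1.73 (SE 0.244, limma adjusted p = 0.0479).

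Among all genes with an unadjusted p below 0.01 and no overlap between films, annotated or not, those of largest log2 fold change were Pyun19G011920 and Pyun19G011910 on the higher side in BF and Pyun02G001430 and Pyun06G001810 on the lower side. None is named in the sources used here. Pyun19G011920 had 4.92, 5.98 and 13.9 FPKM in BF and 0.421, 0.137 and 0.743 FPKM in GF (log2 fold change 2.59, SE 0.355, limma adjusted p = 0.0479). Pyun19G011910, whose identifier is next in the same series, had 11.1, 11.7 and 25.1 FPKM in BF and 2.79, 0.556 and 2.23 FPKM in GF (2.57, SE 0.373, adjusted p = 0.0516 in limma). BF replicate 3 was the highest library for both, and if they are near-identical copies, reads may have been divided between them. Pyun02G001430 had 0.997, 1.63 and 0.807 FPKM in BF and 6.14, 5.204 and 8.43 FPKM in GF, a log2 fold change of -1.82 (SE 0.225, limma adjusted p = 0.0479). For Pyun06G001810 the BF values were 0.742, 2.07 and 0.968 FPKM and the GF values 2.90, 5.05 and 15.3 FPKM, the last from GF replicate 3, and the gene did not pass (-1.73, SE 0.442, limma adjusted p = 0.418).

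Among the 400 genes that the study lists under pathways or in its focused tables, 361 were tested and none was a DEG. At an unadjusted p below 0.05, 49 of the 361 were higher in BF and 10 lower, whereas over all genes tested 4.25% were higher and 2.23% lower. The median log2 fold change was 0.16 against 0.02 for all genes tested. The study drew these lists from genes it called between films in *P. qamdoensis*, whose libraries are not part of this comparison. They are therefore not whole pathways, and the shares given for a list cover only such genes. Of the 355 pathway or annotated genes tested, the 6 qRT-PCR genes aside, 13 higher in BF and 2 lower combined an unadjusted p below 0.01 and a fold change of at least 1.5 with no overlap between films. Over all genes tested, 264 met these conditions (1.11%), 182 higher (0.764%) and 82 lower (0.344%), and without the condition on overlap 279 did (1.17%), 191 higher (0.802%) and 88 lower (0.369%). Among the listed genes, only Pyun06G006840 and Pyun06G009990 had an adjusted p below 0.05.

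Flavonoid biosynthesis makes pigments and ultraviolet-absorbing compounds from phenylalanine. Of the 33 genes listed for it and tested, 26 had a positive log2 fold change (median 0.22, 55.2% of all genes positive). In *P. qamdoensis*, on which the list was drawn, 29 of the 33 were positive. In *P. schneideri* 6 were higher and 0 lower at an unadjusted p below 0.05 (4.25% and 2.23% of all genes). Without GF replicate 1, which held the lowest summed level of the list (546.5 FPKM, against 774.1 to 1028 FPKM in BF, to 864.4 and 1138 FPKM in the other GF libraries and 1500 to 2002 FPKM in WF), 17 of 33 were positive and the median was 0.12. Pyun04G002210 of this list had 14.2, 14.9 and 20.7 FPKM in BF and 8.34, 11.8 and 8.59 FPKM in GF (log2 fold change 0.73, SE 0.188, limma adjusted p = 0.420). Its lowest BF library stood above its highest GF library by a small margin. Pyun12G002620 had 57.1, 24.5 and 53.4 FPKM in BF and 23.8, 22.8 and 21.2 FPKM in GF, so that BF replicate 2 was almost at the GF level (0.87, adjusted p = 0.517 in limma). Pyun12G002380 of the same list, chosen after its values were seen, had the same low BF replicate 2, at 18.6 FPKM against 46.7 and 44.0 FPKM, and overlapped with GF (14.9 to 19.7 FPKM).

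Pyun18G009580, listed under flavonoid, phenylpropanoid and stilbenoid biosynthesis, was low throughout, with 1.62, 1.53 and 0.969 FPKM in BF and 0.232, 0.154 and 0.618 FPKM in GF (log2 fold change 0.83, SE 0.217, limma adjusted p = 0.432). The largest log2 fold change of the flavonoid list belonged to Pyun03G016750, also chosen after its values were seen and listed under circadian rhythm as well, at 1.196 (SE 0.374, limma adjusted p = 0.546). Its BF values of 2.85, 6.47 and 6.84 FPKM overlapped with the GF values of 0.691, 3.29 and 1.59 FPKM, and the WF values of 6.89 to 14.5 FPKM were above both. The most abundant flavonoid gene, Pyun14G012420, chosen in the same way, had 281.7, 173.9 and 310.4 FPKM in BF and 134.5, 249.6 and 343.9 FPKM in GF, and its GF libraries alone spanned the whole range of BF.

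Phenylalanine metabolism feeds the same phenolic compounds. Pyun16G012200 of this list had 3.70, 3.03 and 3.58 FPKM in BF and 1.74, 1.43 and 1.14 FPKM in GF, with little spread in either film (log2 fold change 0.87, SE 0.159, limma adjusted p = 0.141). Pyun06G011600, listed under phenylalanine metabolism and phenylpropanoid biosynthesis, had 3.62, 5.13 and 5.33 FPKM in BF, 1.52, 3.30 and 2.69 FPKM in GF and 6.55 to 8.62 FPKM in WF (0.72, adjusted p = 0.475 in limma). In the list as a whole, 9 of 11 genes tested were positive and 2 negative (median 0.17, 55.2% of all genes positive). At an unadjusted p below 0.05, 3 were higher and 1 lower (4.25% and 2.23% of all genes). Films did not overlap in 3 higher and 1 lower gene (6.19% and 3.38% of all genes). Of the genes of phenylalanine, tyrosine and tryptophan biosynthesis, 10 of 11 were positive (median 0.22), and 8 of 11 under median-ratio scaling and under quantile normalization. In *P. qamdoensis*, on which both lists were drawn, 12 of 12 genes were positive in each.

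The list of cysteine and methionine metabolism, which makes the sulfur amino acids and the precursor of ethylene, was positive in 20 of 20 genes tested, under both other scalings as well (median 0.28, 55.2% of all genes positive). In *P. qamdoensis*, on which the list was drawn, 20 of 22 were positive, so that the list was chosen among genes mostly higher in BF there. In *P. schneideri*, 4 of the 20 had an unadjusted p below 0.05 (4.25% of all genes higher in this way) and 4 did not overlap between films (6.19% of all genes higher in this way). Without BF replicate 2 the count was 16 of 20 and the median 0.12. BF replicate 2 had the highest summed level of the list, 848.5 FPKM, against 622.3 and 694.5 FPKM in the other BF libraries and 491.7 to 562.1 FPKM in GF. Much of that sum came from Pyun14G013640, with 260.3, 425.0 and 349.9 FPKM in BF, 228.1, 166.1 and 241.4 FPKM in GF and 241.7 to 265.3 FPKM in WF. All BF libraries were above all GF libraries, and the log2 fold change was 0.69 (SE 0.195, limma adjusted p = 0.469). Pyun02G017510, chosen after its values were seen, showed how small the differences of the list were where the spread was least, with 20.8, 21.5 and 22.6 FPKM in BF and 17.9, 18.1 and 17.6 FPKM in GF (0.26, SE 0.0954, limma adjusted p = 0.643).

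**Figure D2:**
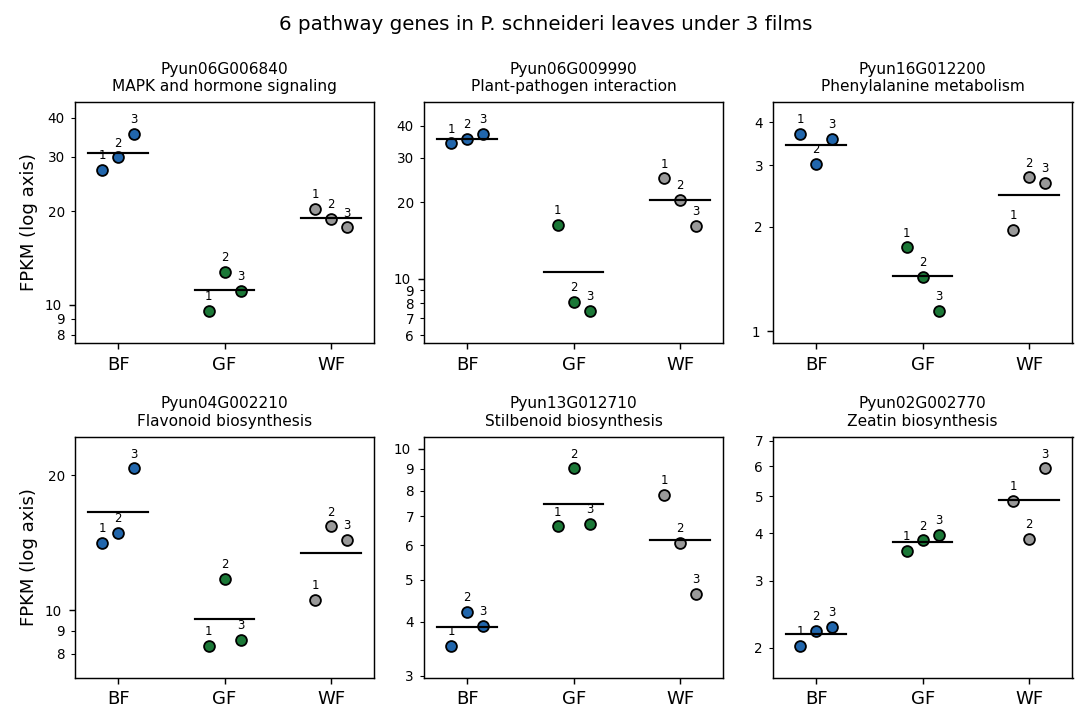
FPKM of 6 pathway genes on log axes, by film, with each library as a numbered point and the mean of 3 libraries as a line. BF lies above GF without overlap in the upper row and in Pyun04G002210, and below GF in Pyun13G012710 and Pyun02G002770.

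Other pathway genes of the set came from defense signaling and the cell wall. Pyun01G009400, listed under MAPK signaling and plant-pathogen interaction, had 3.65, 5.495 and 3.37 FPKM in BF and 2.44, 2.08 and 1.53 FPKM in GF (log2 fold change 0.77, limma adjusted p = 0.408). Endoglucanase 12 (Pyun08G007050), an enzyme class that cuts cellulose chains, had 2.52, 6.54 and 3.30 FPKM in BF and 1.69, 1.73 and 1.79 FPKM in GF (0.83, adjusted p = 0.525 in limma). In both, BF replicate 2 was the highest library and the WF values (1.45 to 2.20 and 1.43 to 2.41 FPKM) were close to GF.

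The 2 pathway genes at lower levels in BF that met these conditions are listed under stilbenoid and zeatin biosynthesis. Other members of both lists went the other way. Of the 9 stilbenoid genes tested, 6 were positive and 3 negative (median 0.12), and of the 2 zeatin genes tested 1 was positive and 1 negative. Pyun13G012710, listed under stilbenoid, diarylheptanoid and gingerol biosynthesis, had 3.52, 4.21 and 3.91 FPKM in BF and 6.62, 9.01 and 6.70 FPKM in GF (log2 fold change -0.78, SE 0.180, limma adjusted p = 0.325). Pyun02G002770, listed under biosynthesis of zeatin, a cytokinin, had 2.02, 2.21 and 2.27 FPKM in BF and 3.59, 3.83 and 3.96 FPKM in GF, among the tightest replicates of the genes named here (-0.60, SE 0.150, limma adjusted p = 0.406). In WF it was at 3.87 to 5.92 FPKM, so that BF held the lowest 3 of the 9 libraries.

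Of the 6 light signaling genes that the study followed by qRT-PCR, none passed the test between BF and GF (smallest adjusted p 0.881 in limma). Log2 fold changes ran from -0.21 to 0.06 (5 negative, 1 positive, median -0.09), and no gene had non-overlapping films. Without GF replicate 1 all 6 were negative, with a median of -0.20. The study's primer table gives primer pairs beside these identifiers. Those for the blue light receptor, the bZIP factor and the red light receptor are as follows, 5′ to 3′ with no base marked.
CRY1 forward: aggcatccacaatctcaccag
CRY1 reverse: tggcaaaagaagcagtcacagta
HY5 forward: agcccaacaagctcgagaaa
HY5 reverse: accttccgaagcatggtgtt
PHYB forward: acgctggcagtttatggtga
PHYB reverse: accttcaccagggcaaacaa

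CRY1 (Pyun02G008950) had 49.9, 66.1 and 49.5 FPKM in BF and 54.3, 59.1 and 67.9 FPKM in GF, and the films overlapped (log2 fold change -0.14, SE 0.132, limma adjusted p = 0.938). HY5 (Pyun10G000570) was at 77.9, 74.0 and 66.5 FPKM in BF and 60.1, 71.6 and 97.4 FPKM in GF, the GF libraries reaching below and above all of BF. Its relative HYH (Pyun13G015450) had the least spread of the 6, at 26.2 ± 1.85 FPKM in BF and 26.4 ± 0.855 FPKM in GF (SD, n = 3), with a log2 fold change of -0.01 (SE 0.0939). For COP1 (Pyun14G013660), 17.5 ± 1.91 FPKM in BF stood against 17.2 ± 5.08 FPKM in GF (SD, n = 3). PHYB (Pyun10G014030) had 7.39, 8.66 and 7.46 FPKM in BF and 8.18, 10.4 and 9.03 FPKM in GF, the largest of these differences (-0.21, SE 0.130, limma adjusted p = 0.881). PIF4 (Pyun02G023670) was at 17.99 ± 0.270 FPKM in BF and 19.97 ± 2.58 FPKM in GF (SD, n = 3). Both genes annotated as PIF3 overlapped between the colored films, Pyun14G009100 with 13.2 ± 3.44 FPKM in BF and 11.8 ± 1.64 FPKM in GF and Pyun14G008760 with 7.44 ± 1.30 and 7.03 ± 0.927 FPKM (SD, n = 3), while the WF means were 5.27 and 2.96 FPKM.

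Apart from chlorophyllase-1, the chlorophyll genes differed more between the GF libraries than between the means of the 2 films. The STAY-GREEN proteins take the magnesium out of chlorophyll, pheophorbide a oxygenase opens the ring of the product, and protochlorophyllide reductase makes the precursor of chlorophyll. STAY-GREEN 1 Pyun01G010920 had 69.0, 122.1 and 51.8 FPKM in BF and 25.8, 77.7 and 236.1 FPKM in GF, so that both the lowest and the highest of the 6 values were GF libraries (log2 fold change -0.05, SE 0.626). The second STAY-GREEN 1 gene, Pyun03G011220, showed the same order, with 56.9, 126.3 and 284.2 FPKM in GF and 116.5, 202.6 and 86.3 FPKM in BF. Pheophorbide a oxygenase (Pyun04G020980) had 64.3, 97.4 and 197.5 FPKM in GF and 107.2, 181.7 and 91.2 FPKM in BF, and TIC 55 (Pyun06G024870), a chloroplast envelope protein, had 47.2, 63.5 and 101.0 FPKM in GF. Protochlorophyllide reductase (Pyun01G038270) ran the other way in GF, with 42.1, 14.4 and 8.24 FPKM, against 24.8, 20.5 and 26.0 FPKM in BF. GF replicate 3 and BF replicate 2, which held the highest STAY-GREEN levels of their films, are the libraries that stood apart on the second principal component. Chlorophyllase-1 (Pyun05G019920) stayed near or under 1 FPKM in all 6 libraries, at 0.752 ± 0.280 FPKM in BF and 0.429 ± 0.0841 FPKM in GF (SD, n = 3), and the films overlapped. None of the 6 genes of the list passed (smallest adjusted p 0.862 in limma), and with these spreads the SE of a log2 fold change reached 0.626. A 1.5-fold difference would not have passed at such an SE, and this limit is not confined to the list. Pyun02G002770, at -0.60 with an SE of 0.150, did not pass either (limma adjusted p = 0.406), and the median SE of all genes tested was 0.159.

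The antenna genes followed the order of protochlorophyllide reductase in GF. Pyun02G020650, the most abundant of the 3, had 481.6, 185.9 and 175.3 FPKM in GF and 390.9, 297.9 and 339.0 FPKM in BF (log2 fold change 0.44, SE 0.320, limma adjusted p = 0.906). The median of the 3 genes was 0.39, and it was 0.86 without GF replicate 1, 0.23 without GF replicate 2 or BF replicate 1 and 0.09 without GF replicate 3. The 6 genes listed under photosynthesis all had negative log2 fold changes (median -0.9985), 2 of them with an unadjusted p below 0.05 (2.23% of all genes lower in this way) and 1 without overlap between films (3.38%), and GF replicate 2 stood far above the other colored film libraries. The sum of the list was 31.8, 270.4 and 58.1 FPKM in GF replicates 1 to 3, 21.4 to 40.9 FPKM in BF and 148.2 to 179.3 FPKM in WF. The new gene Populus_yunnanensis_newGene_1853 had 131.6 FPKM in GF replicate 2 against 12.2 and 26.0 FPKM in the other GF libraries and 8.48 to 18.5 FPKM in BF. Without GF replicate 2 the median of the list was -0.30. The list of oxidative phosphorylation, 3 of whose 6 genes are the same ones, had a median of -0.56, and of 0.05 without GF replicate 2.

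**Figure D3:**
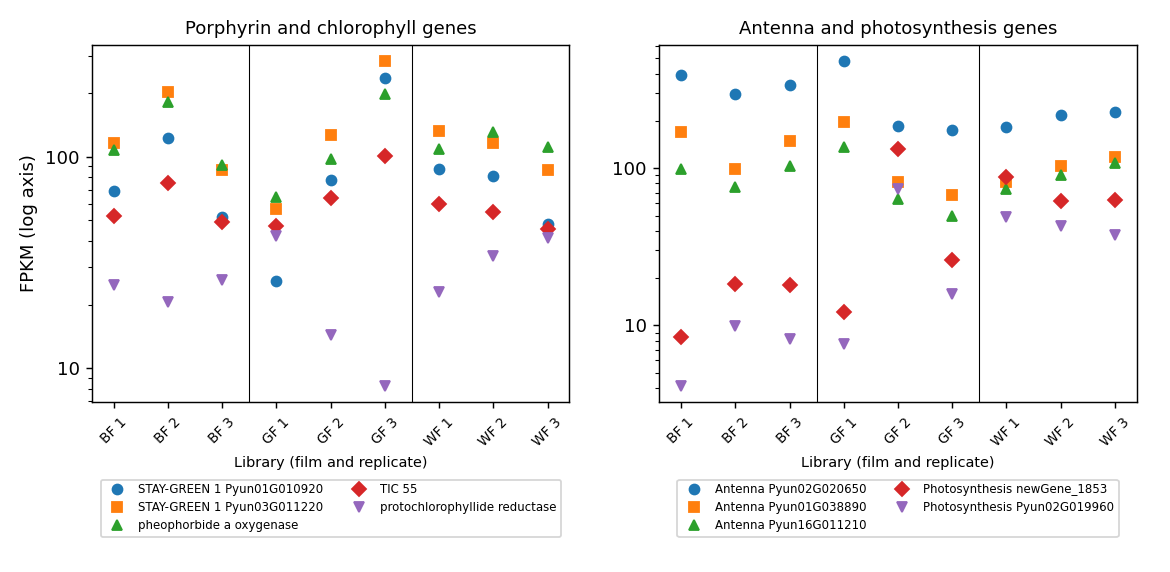
FPKM of 5 porphyrin and chlorophyll genes (left) and of 3 antenna and 2 photosynthesis genes (right) in each of the 9 *P. schneideri* libraries, on log axes. In GF the STAY-GREEN genes range from 25.8 to 284.2 FPKM over 3 libraries, and the photosynthesis genes are high in GF 2 and in the 3 WF libraries.

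Among the starch and sucrose genes, 34 of 46 were tested, 24 positive and 10 negative (median 0.19, 55.2% of all genes positive). In *P. qamdoensis*, on which the list was drawn, 34 of 44 were positive. In *P. schneideri* 4 were higher in BF at an unadjusted p below 0.05, none lower (4.25% and 2.23% of all genes). Those 4 do not make or break starch. They were endoglucanase 12, 2 genes annotated as glucan endo-1,3-beta-glucosidase (Pyun01G024520 and Pyun06G004350), a class known for cutting callose and fungal walls, and a gene annotated as TMV resistance protein N (Pyun19G002000), an immune receptor class, the last 3 chosen after their values were seen. Without BF replicate 2, 19 of 34 were positive and the median was 0.08. Of the enzymes of starch and sucrose named here and tested, none separated the films. Pullulanase 1 (Pyun10G021480), which removes branches from starch, had 34.8, 25.4 and 25.2 FPKM in BF and 27.7, 26.7 and 22.5 FPKM in GF (log2 fold change 0.14, SE 0.143). The plastid glucan phosphorylase (Pyun04G011470), which releases glucose phosphate from starch, had 44.9 ± 3.60 FPKM in BF, 48.4 ± 17.0 FPKM in GF and 90.4 ± 16.0 FPKM in WF (SD, n = 3). The large subunit of glucose-1-phosphate adenylyltransferase, the first committed step of starch synthesis, was represented by Pyun09G011970 with 8.64, 4.58 and 13.7 FPKM in BF and 4.76, 24.0 and 12.7 FPKM in GF, and by Pyun04G015050 with 2.74, 1.82 and 2.97 FPKM in BF and 1.76, 4.55 and 4.16 FPKM in GF. Isoamylase 2 (Pyun02G020430) was at 7.502 ± 1.91 FPKM in BF and 6.21 ± 3.10 FPKM in GF (SD, n = 3).

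Invertases cleave sucrose to glucose and fructose. The cell wall form, beta-fructofuranosidase insoluble isoenzyme 1 (Pyun06G019190), had 5.86, 12.7 and 5.88 FPKM in BF and 8.84, 3.73 and 3.73 FPKM in GF (log2 fold change 0.52, SE 0.322, limma adjusted p = 0.880), and the films overlapped through GF replicate 1. The vacuolar form (Pyun15G012150) was at 2.02 ± 0.422 FPKM in BF and 2.48 ± 0.625 FPKM in GF (SD, n = 3). Sucrose synthase 2 (Pyun06G012700) had 1.23 ± 0.405 and 1.52 ± 0.258 FPKM (SD, n = 3). Sucrose synthase 6 (Pyun04G007170) was low in 2 libraries of each film and higher in BF replicate 2 (3.96 FPKM) and GF replicate 3 (2.95 FPKM). Sucrose synthase 1 (Pyun18G005620), sucrose-phosphate synthase 3 (Pyun17G006180) and trehalose-phosphate phosphatase A (Pyun15G012130) had means under 0.5 FPKM over the 9 libraries and were not tested, although the last was at 0.338 to 0.665 FPKM in BF and 0.107 to 0.317 FPKM in GF, without overlap.

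Cytokinin signaling passes from membrane histidine kinases through histidine-containing phosphotransfer proteins to response regulators in the nucleus. The cytokinin list also holds the transcription factors GLK1-like, BOA, EFM and both PHL5 genes, placed there by annotation. Its counts are therefore not those of the kinases and phosphotransfer proteins alone. Of the 9 genes of this list, 6 were negative and 3 positive (median -0.12), and 2 were lower in BF at an unadjusted p below 0.05 (2.23% of all genes), with none higher. The phosphotransfer protein 1 gene Pyun13G002930 had 24.3, 20.8 and 25.01 FPKM in BF, 30.5, 39.2 and 33.8 FPKM in GF and 39.1 to 44.2 FPKM in WF. The 3 films did not overlap except at the border of GF and WF, and the log2 fold change was -0.54 (SE 0.1202, limma adjusted p = 0.315), between -0.62 and -0.45 without any single library. The second phosphotransfer gene, Pyun08G018590, had 3.69 ± 0.762 FPKM in BF and 3.47 ± 0.455 FPKM in GF (SD, n = 3). PHL5 (Pyun06G017330), a MYB family factor, had 12.3, 11.2 and 6.999 FPKM in BF and 11.1, 18.9 and 16.6 FPKM in GF (-0.57, SE 0.218, limma adjusted p = 0.675). The receptor kinases HK3a (Pyun01G005630) and HK3b (Pyun03G015950) varied mostly within GF, with 19.5, 41.4 and 41.8 FPKM and with 19.7, 45.7 and 52.0 FPKM. GF replicate 1 was the low library in both, as in the second PHL5 gene (Pyun16G004240), at 3.85 FPKM there against 11.3 and 17.0 FPKM. The median of the cytokinin list was -0.52 without GF replicate 1 and 0.01 and 0.03 without GF replicates 2 and 3.

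Auxin and gibberellin genes did not separate the films. In the auxin list 4 of 5 genes were tested, and log2 fold changes ran from -0.22 for SAUR50 (Pyun01G016130), with 7.28 ± 1.57 FPKM in BF and 8.55 ± 1.31 FPKM in GF, to 0.27 for auxin-induced protein 6B (Pyun09G012660), with 2.67 ± 0.770 and 2.09 ± 0.926 FPKM (SD, n = 3). GH3.1 (Pyun09G009710), which joins auxin to amino acids and so inactivates it, was at 0.988 ± 0.605 FPKM in BF and 0.809 ± 0.234 FPKM in GF, and at 2.88 ± 0.494 FPKM in WF (SD, n = 3). The gibberellin list holds the hormone genes left after auxin and cytokinin, among them NLP9 and both PIF3 genes. In it 6 of 10 genes were positive (median 0.04) and none reached an unadjusted p of 0.05. The nearest was scarecrow-like protein 27 (Pyun03G010210) with 5.77, 4.02 and 4.16 FPKM in BF and 7.41, 6.71 and 4.78 FPKM in GF (-0.37, SE 0.174, limma adjusted p = 0.799). The gibberellin receptor GID1C (Pyun13G002950) had 58.4, 51.9 and 43.2 FPKM in BF and 37.9, 67.3 and 83.0 FPKM in GF. The DELLA protein RGL1 (Pyun10G013610), a repressor of gibberellin responses, was under 1 FPKM in 5 of the 6 libraries and at 1.39 FPKM in GF replicate 3. The carboxylesterase 18 genes Pyun19G002820 and Pyun19G002920 were steady in BF, at 2.90 ± 0.139 and 4.27 ± 0.397 FPKM (SD, n = 3), and spread widely in GF, from 4.51 to 0.642 FPKM and from 6.72 to 0.952 FPKM.

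**Figure D4:**
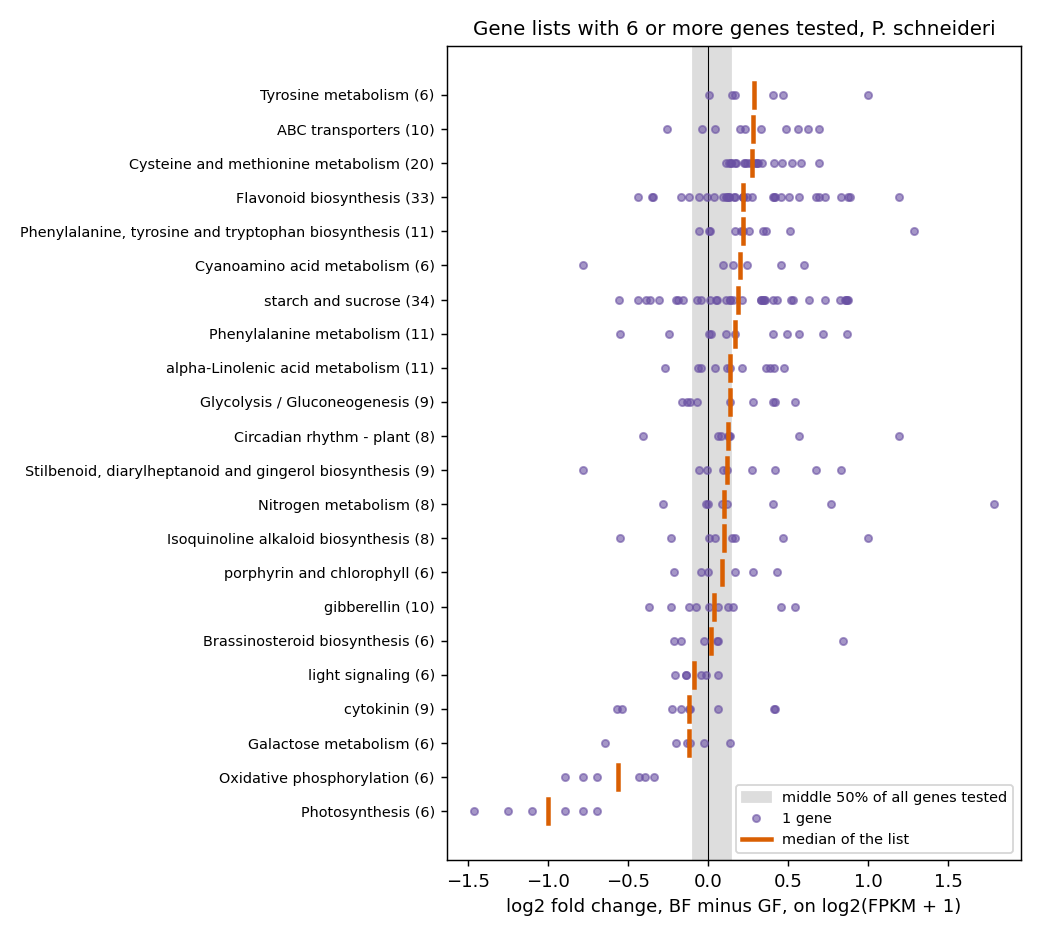
Log2 fold changes, BF minus GF, of each gene (points) and their medians (bars) in the 22 lists with 6 or more genes tested, the number tested in brackets, with the interquartile range of all genes tested in grey. Medians run from -0.9985 for photosynthesis (-0.30 without GF replicate 2) to 0.29 for tyrosine metabolism, and the 6 light signaling genes lie between -0.21 and 0.06.

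The same contrast in *P. qamdoensis*, which shares no library with the one described here, gave 0 DEGs of 24147 genes in limma as well. The study, by a test it does not name, did call genes between BF and GF there. In limma, 12 genes had an adjusted p below 0.05 (0.0497%, 8 or 0.0331% higher and 4 or 0.0166% lower in BF). An unadjusted p below 0.05 was found for 4598 (19%, 8.5% higher and 10.5% lower). Films did not overlap in 22.9% of the *P. qamdoensis* genes, and 44.3% had a positive log2 fold change. Over the 22916 genes tested in both species, Pearson's r of the log2 fold changes was 0.33 and Spearman's rho 0.30, across genes, which are not independent replicates. Of the 12 *P. schneideri* genes at an adjusted p below 0.05, 10 had the same direction in *P. qamdoensis*, 7 of them with an unadjusted p below 0.05 there. Over all genes tested in both species, 59.7% had the same sign. The contrasts of the 2 species differed at an unadjusted p below 0.05 in limma for 4 of the 12. Pyun06G006840 had a log2 fold change of 1.11 in *P. qamdoensis*, from 28.2 ± 10.2 FPKM in BF and 12.0 ± 1.21 FPKM in GF (SD, n = 3), levels close to those of *P. schneideri*. Pyun06G009990 had 2.98, from 88.1 ± 61.2 and 7.46 ± 1.61 FPKM. Of the 2 genes lower in BF, Pyun02G001430 had a log2 fold change of 0.14 in *P. qamdoensis* and the other one, not named in the sources, -0.06. Of the 973 genes higher in BF at an unadjusted p below 0.05 and tested in both, 724 (74.4%) were also higher in *P. qamdoensis*, where 43.5% of all genes were higher. Of the 506 lower ones, 297 (58.7%) were lower there, against 56.5% of all genes.

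The difference of the 2 contrasts, *P. schneideri* minus *P. qamdoensis*, came from 1 model of the 18 libraries together. None of 24273 genes passed (0% called, smallest adjusted p 0.0862 in limma), and 2407 (9.92%) had an unadjusted p below 0.05, 1374 with a positive difference (5.66%) and 1033 with a negative one (4.26%), where 58.3% of all differences were positive. With a p below 0.01 and a difference of at least 1.5-fold there were 499 genes (2.06%), 228 positive (0.939%) and 271 negative (1.12%). The count of passing genes depended on the *P. qamdoensis* libraries, being 120 without BF replicate 2 of that species, 2 without its BF replicate 1 and 1 without its BF replicate 3 or WF replicate 1. The study chose the pathway-listed genes on the *P. qamdoensis* libraries, which also enter this difference, so that large differences among them follow in part from that choice. The largest positive difference among pathway-listed genes with an unadjusted p below 0.01 was that of Pyun07G010560. It is listed under plant hormone signal transduction and is 1 of 5 genes that share the smallest adjusted p. In *P. schneideri* it had 2.57, 6.28 and 3.03 FPKM in BF and 1.57, 1.76 and 2.20 FPKM in GF, whereas in *P. qamdoensis* it was listed at 0 in BF replicate 1, with 0.362 and 2.20 FPKM in the other BF libraries and 5.02 to 7.45 FPKM in GF. BF was above GF in every *P. schneideri* library and below it in every *P. qamdoensis* library, and the difference on the log2 scale was 2.90 (SE 0.475).

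Among the 5 pathway-listed genes of largest negative difference, chosen in the same way and with the same limit, were 2 annotated as glucan endo-1,3-beta-glucosidase. The basic isoform Pyun16G005170 had 1.22, 5.48 and 1.93 FPKM in BF and 2.52, 0.390 and 0.430 FPKM in GF of *P. schneideri*, against 80.2, 11.6 and 152.8 FPKM in BF and 0.649 to 1.22 FPKM in GF of *P. qamdoensis* (difference -3.93, SE 0.927, limma adjusted p = 0.215). Its neighbor by identifier, Pyun16G005160, had a difference of -3.10 (SE 1.05, limma adjusted p = 0.405). Pyun10G013510 and Pyun10G013760, 2 starch-list genes without a described function, had differences of -3.93 and -2.68, and in *P. schneideri* GF replicate 1 was their highest library (5.24 and 2.38 FPKM). Pyun12G002150, listed under amino sugar and nucleotide sugar metabolism, had -2.47. The genes of positive difference included a pair listed under ABC transporters, Pyun15G006430 (2.79, SE 0.927) and Pyun15G006440 (1.99, SE 0.622), the phenylpropanoid gene Pyun07G010310 (1.80, SE 0.575) and the new gene Populus_yunnanensis_newGene_1421 of amino sugar metabolism (1.40, SE 0.469), with adjusted p from 0.359 to 0.405 in limma. Pairs with neighboring identifiers may share reads.

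No chlorophyll gene passed the test of the species difference. STAY-GREEN 1 Pyun01G010920 had a log2 fold change of -0.05 in *P. schneideri* and -2.09 in *P. qamdoensis*, a difference of 2.04 (SE 0.913, limma adjusted p = 0.488), and pheophorbide a oxygenase (Pyun04G020980) had 0.17 and -0.97, a difference of 1.14 (SE 0.521, limma adjusted p = 0.493). Chlorophyllase-1 (Pyun05G019920) had a difference of the opposite sign, with 0.28 in *P. schneideri* and 2.06 in *P. qamdoensis* (-1.77, SE 0.783, limma adjusted p = 0.484). In *P. qamdoensis* these genes were part of a list the study chose on those libraries. The phosphotransfer protein 1 gene Pyun13G002930 was negative in both species, -0.54 and -1.09 (difference 0.54, SE 0.453, limma adjusted p = 0.674).

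**Figure D5:**
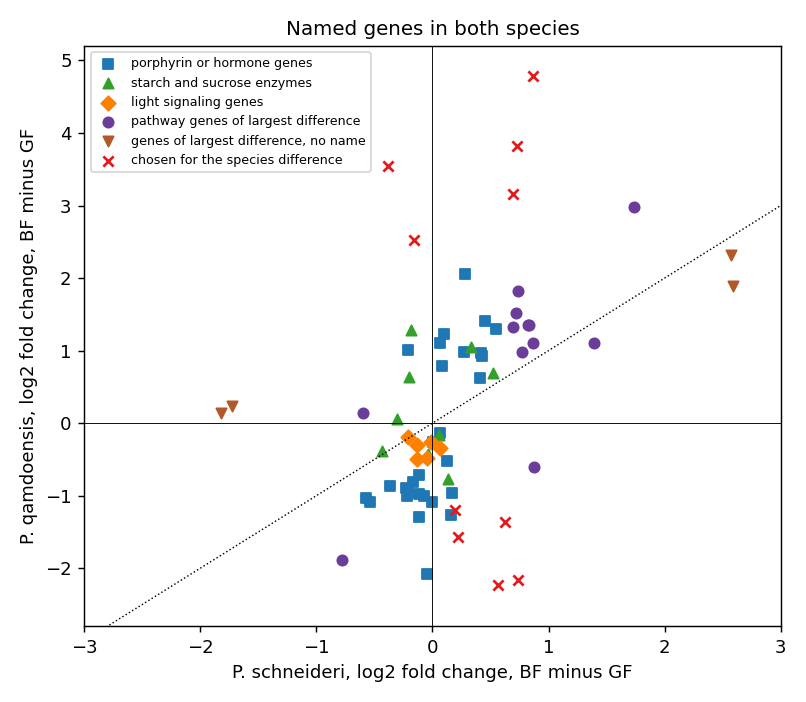
Log2 fold changes, BF minus GF, of the named genes apart from the leaf markers in *P. schneideri* (x axis) and *P. qamdoensis* (y axis), by the part of the naming rule that chose them, with the line of equal values dotted. Pyun19G011920 and Pyun19G011910 lie at 2.59 and 2.57 on the x axis, and the genes chosen for the species difference lie far from the line by their choice.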

How the data were processed

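RNA-seq was done on leaves of cuttings of 2 poplars under 3 films, 3 libraries each. For *P. qamdoensis* the study's methods describe Illumina reads, filtered and set against a *P. yunnanensis* assembly. The authors deposited FPKM per gene for both species, and the submitters' processing notes name HISAT2 and StringTie without version or role. Low FPKM values were not whole multiples of 1 read, so reads were not recovered and no count test was run. All columns were matched to a sample.

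FPKM values were used as log2(FPKM + 1) for genes averaging 0.5 FPKM or more in the 9 libraries of a species, or in all 18 for the species difference. Models were fitted in limma 3.58.1 (R 4.3.3) with 1 mean per film and species, a spread pooled over the 3 films (both species together for the difference), and eBayes with trend. P-values are two-sided and adjusted by Benjamini-Hochberg over all genes tested. Called genes, or DEGs, had an adjusted p below 0.01 and a fold change of at least 1.5, the study's thresholds. The study's methods do not name the test behind its DEGs, so that the counts given here come from limma alone. The *P. schneideri* and species difference fits were tested on simulated data. Single values of 3 against 3 libraries cannot reach an exact p below 0.1. Python 3.11.15, numpy 2.4.6, pandas 2.3.3 and matplotlib 3.10.9 served for the rest.

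Named genes are the 6 of the primer table, those of the porphyrin and hormone sections of the annotation table, selected starch and sucrose enzymes, the leaf markers, the pathway-listed genes of largest log2 fold change (up to 10 per direction, and 2 per direction of any annotation) with an unadjusted p below 0.01, a fold change of at least 1.5 and no overlap between films, and up to 5 per direction for the species difference among pathway-listed genes without the overlap rule, unannotated ones being left out there. The overlap and p conditions replaced the call, since no gene was called. Lists are the study's pathway lists that were printed without a cut, its starch, porphyrin and hormone sections and its 6 qRT-PCR genes. They hold genes the study called in *P. qamdoensis* and not whole pathways. Hormone genes were divided by annotation, and those that matched neither the auxin nor the cytokinin terms form the gibberellin list. Members and lists were chosen with earlier results of these data known.

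Alternatives were a pseudocount of 0.1, no filter, a filter of 5 FPKM, quantile and median-ratio scaling, eBayes without trend, library weights, only the BF and GF libraries, the replicate number as a block, other thresholds and leaving out each library.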

Additional observations from a re-analysis of the deposited data

How the results depend on the processing

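For BF against GF in *P. schneideri*, the count of DEGs moved from 0 to 14 with library weights (GF replicate 1 weighted 0.295, GF replicate 2 2.76), to 1 without a filter and to 12 at an adjusted p below 0.05, and was 0 to 1 without single libraries. The count of 12 at an adjusted p below 0.05 became 346 with weights, 2 without filter, with a filter of 5 FPKM, with quantile or median-ratio scaling or with eBayes without trend, and 0 with only the BF and GF libraries, and was 0 to 42 without single libraries. At an unadjusted p below 0.05 it was 5625 with weights, 867 with the filter of 5 FPKM, which leaves 15211 genes, and 1161 to 3876 without single libraries. For the species difference, the DEGs moved from 0 to 1 with only the BF and GF libraries and were 0 to 120 without single libraries. The count at an adjusted p below 0.05 was 1 with weights or only the BF and GF libraries, 2 with median-ratio scaling, 4 with quantile normalization and 0 to 380 without single libraries, and that at an unadjusted p below 0.05 was 1480 with the filter of 5 FPKM, 1597 with only the BF and GF libraries and 1675 to 4712 without single libraries. Apart from the smaller number of genes or libraries in a fit, the cause was not tested. The 12 genes kept their direction in each of these settings, 6 of them being tested with the filter of 5 FPKM.

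List medians moved with weights to -0.20 for auxin, -0.38 for cytokinin, -1.40 for oxidative phosphorylation and -2.14 for photosynthesis, and with the filter of 5 FPKM to 0.40 for glycolysis, 0.41 for nitrogen metabolism and 0.49 for phenylalanine metabolism. Without single libraries they ran from -0.20 to -0.023 for light signaling, -0.52 to 0.033 for cytokinin, -0.88 to 0.055 for oxidative phosphorylation and 0.086 to 0.35 for the stilbenoid list. Single genes moved by more than the spread in 22 of their comparisons with an alternative, passed a threshold in 6 and kept within the spread in 1365.

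Replicate numbers did not pair the libraries. Deviations of same-numbered BF and GF libraries from their film means correlated at 0.10, -0.13 and -0.28, and with the replicate number as a block 0 genes were DEGs, 8 had an adjusted p below 0.05 and 1313 an unadjusted p below 0.05 (0, 0 and 1923 for the species difference). The difference of mean r within and between films was 0.0062, and 0.0096 with a pseudocount of 0.1 and 0.0095 with a filter of 5 FPKM, both chosen after seeing the data.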
